A study of Mus musculus with 9 samples.

Results

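The mitochondrial ribosomal protein genes were taken from the RNA-Seq table as every gene whose symbol begins with Mrpl or Mrps followed by a digit, which gave 79 of the 15184 listed genes. Of these, 50 carried an Mrpl name and 29 an Mrps name, and 1 of the 50, *Mrpl23-ps1*, is annotated as a pseudogene. The libraries were made from mouse embryonic fibroblasts (MEFs), connective tissue cells cultured from wild-type embryos. The study used the SAM system, in which a catalytically dead Cas9 recruits transcriptional activators to a promoter chosen by a guide RNA. There were 3 libraries of cells with the empty vector. As the control, the study's methods name the guide vector with a guide described as nontargeting. Another 3 libraries each came from the lines SAM1 and SAM2, both labelled Hnrnpk_SAM. In these, guides were directed at *Hnrnpk*, the gene of an RNA-binding protein. The study prints the same sequence for the nontargeting guide and for 1 *Hnrnpk* guide, so the identity of the control guide cannot be settled here. The methods do not state whether the control cells also received the separate activator vector and the same drug selection. The labels do not say which guide each line carries, and nothing states that the libraries of 1 line came from separate cultures, so the p-values measure the spread between libraries, which may be technical.

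Mitochondria translate the few mRNAs of their own DNA on a dedicated ribosome, the mitoribosome, whose proteins are all encoded in the nucleus, made in the cytosol and imported, while its rRNAs come from mitochondrial DNA. The large subunit holds the peptidyl transferase centre, the exit tunnel, a stalk that recruits translation factors and a central protuberance. The small subunit has a head and a body that decode the mRNA. About as many mitoribosome proteins have no bacterial counterpart as have one, and symbols do not always give the subunit, since *Mrps18a* and *Mrps30* encode large-subunit proteins and *Mrps36* encodes a component of the ketoglutarate dehydrogenase complex. The genes below were therefore sorted as 51 large-subunit genes, 26 small-subunit genes, *Mrps36* and the pseudogene.

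The values are normalized counts, that is, reads per gene divided by a size factor of each library, and the libraries held between 41759636 and 49026626 reads on listed genes. *Hnrnpk* itself had 25058, 26098 and 26164 normalized counts with empty vector, 24102, 24045 and 23619 in SAM1 and 26608, 26859 and 26221 in SAM2. The SAM1 libraries lay below all empty vector libraries (log2 difference −0.11) and those of SAM2 above them, by a log2 difference of 0.044 that did not pass the test. On this scale the targeted mRNA thus went against the label in SAM1. With every library scaled to the same sum, the median of all genes in SAM1 moved from 0.0093 to 0.15. The direction of a difference of −0.11 therefore depends on the scaling. By qRT-PCR and Western blot, the study reported overexpression of *Hnrnpk* RNA and HNRNPK protein in its Hnrnpk_SAM MEFs. The groups are named by their labels throughout. Of 10 fibroblast markers, 10 were measured, with 1 higher and 3 lower over all 6 libraries labelled Hnrnpk_SAM, 2 higher and 8 lower in SAM1 (36.9% of all genes were lower there) and 3 higher and 4 lower in SAM2. The defining markers *Ptprc* of leukocytes and *Epcam* of epithelium were not in the table. Of 22 markers of other cell types 13 were listed, with 6 higher and 1 lower, and they summed to 5930 to 6310 normalized counts with empty vector, 18549 to 18913 in SAM1 and 12959 to 13104 in SAM2. Most of that sum came from *Nes*, a neural progenitor filament (log2 difference 2.02), *Kdr*, an endothelial receptor (2.92), and the keratin *Krt19* (0.67). The other markers of their lists did not all go with them. Of 3 neural markers 2 were higher and 1 lower (−0.94). Of 4 endothelial markers 1 was higher and 3 did not pass, and of 3 epithelial markers 1 was higher and 2 did not pass. Of all genes, 26.8% were higher and 27.0% lower. The part of these markers in the results below was not tested, and in such bulk samples a change in the mix of cells and a change in RNA per cell cannot be told apart.

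As a group, the 79 genes were expressed throughout. All but 1 exceeded 10 normalized counts in every library, the exception being *Mrpl53*, with 5.9 to 19.5. Together they took 0.281, 0.31 and 0.297% of the normalized counts with empty vector, 0.294, 0.324 and 0.289% in SAM1, and 0.291, 0.294 and 0.288% in SAM2. As a share, the ranges of all groups overlapped. On the scale of the size factors, used for every other value here, their sum was 137680, 150904 and 144686 normalized counts with empty vector, 130835, 142298 and 128313 in SAM1 and 132451, 133549 and 130888 in SAM2. On that scale all SAM2 libraries lay below the controls and SAM1 overlapped them, while the sum over all listed genes was also lower, at 43909125 to 45489906 in the lines and 48686625 to 49041969 in the controls.

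**Figure D1:**
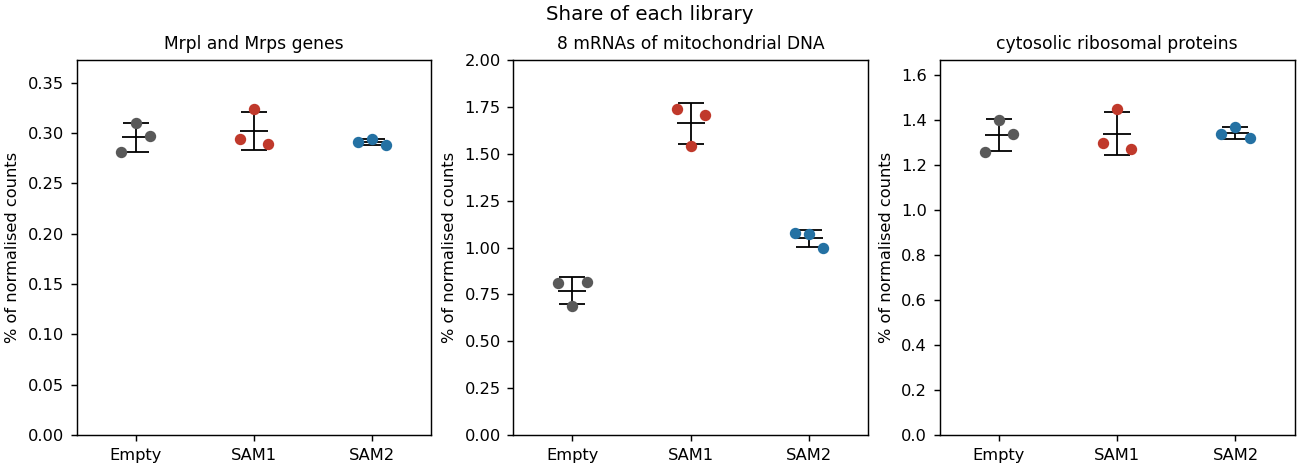
Share of each library's normalized counts, in percent, taken by the 79 Mrpl and Mrps genes, by the 8 listed mRNAs of mitochondrial DNA and by cytosolic ribosomal protein genes. Points are libraries and bars show the mean ± SD of 3. The 3 groups overlap for the mitochondrial and the cytosolic ribosomal proteins, while for the mRNAs of mitochondrial DNA every SAM1 and SAM2 library lies above the empty vector libraries.

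Individual genes moved in both directions. The fit compared log2(value + 1) between the 6 libraries labelled Hnrnpk_SAM and the 3 empty vector libraries with limma and adjusted p over all 15184 genes. In it, 16 of the 79 genes were higher, 35 lower and 28 did not pass, whereas 26.8% of all listed genes were called higher and 27.0% lower. The median log2 difference of the 79 genes was −0.13, beside 0.0087 over all genes. By position of the libraries alone, 11 genes had all 6 libraries above the empty vector libraries, 32 had all 6 below and 36 overlapped, with 25.9% of all genes entirely above and 27.2% entirely below. The split depended on scaling. With every library scaled to the same sum, the median of all genes moved to 0.13 and that of the 79 genes to −0.0048, with 26 called higher and 23 lower, beside 35.2% of all genes higher and 18.7% lower. A single factor per library shifts all genes nearly alike, so the distance of −0.14 between both medians could hardly change. It was −0.11 under quantile normalization, −0.08 without empty vector replicate 2 and −0.044 with each gene centred on the median of its chromosome.

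Both lines gave such counts when each was set against the empty vector libraries, which they share. SAM1 had 22 genes higher, 39 lower and 18 that did not pass (all genes 37.3% higher and 36.9% lower), with a median of −0.10. Under equal sums this median was 0.047 and that of all genes 0.15, at a distance of −0.10 that such scaling can hardly change. In SAM2, 20 genes were higher, 40 lower and 19 did not pass (all genes 35.2 and 35.3%), with a median of −0.13. Because every difference is relative to the size factors, a median of −0.13 places these genes beside the other genes of the library and gives no absolute level.

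**Figure D2:**
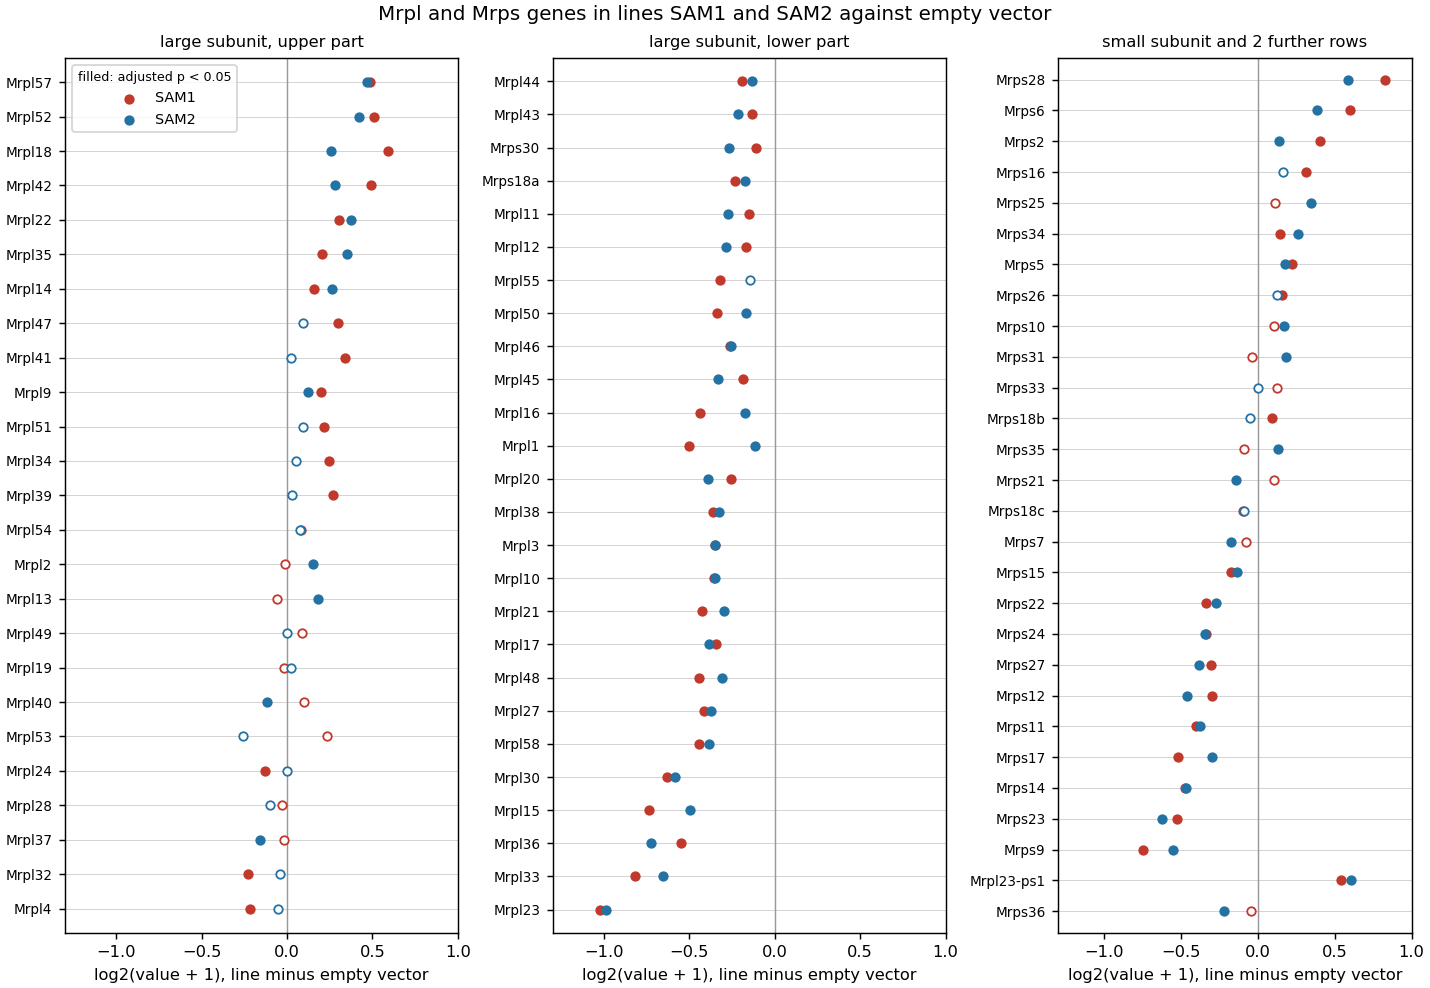
Log2 difference of each Mrpl and Mrps gene in SAM1 and SAM2 from the empty vector group, on the log2(value + 1) scale, sorted within subunits; filled circles passed the test (limma, adjusted p under 0.05). The 2 further rows are the pseudogene *Mrpl23-ps1* and *Mrps36*. Values run from −1.02 for *Mrpl23* in SAM1 to 0.83 for *Mrps28* in SAM1.

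Among large-subunit genes, 8 of 51 were higher and 25 lower, with a median log2 difference of −0.16, and among small-subunit genes 7 of 26 were higher and 10 lower, with a median of 0.0012. With the libraries scaled to equal sums these became 15 higher and 14 lower (median −0.039) and 10 higher and 9 lower (median 0.12), beside 35.2% of all genes higher, 18.7% lower and an all-gene median of 0.13. The difference between subunits was not tested. In the deposited scaling, 10 of 45 genes with a bacterial homolog were higher and 22 lower, and 5 of 31 genes specific to mitochondria were higher and 13 lower. The shares of all genes there were 26.8% higher and 27.0% lower.

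The genes that fell most came from several sites of the ribosome. *Mrpl23*, which encodes the exit tunnel protein uL23m, gave 232, 234 and 222 normalized counts with empty vector, 105, 140 and 95.7 in SAM1 and 123, 129 and 96.5 in SAM2. All 6 libraries lay far below the controls, with a log2 difference of −1.01 ± 0.137 (SE) and an adjusted p of 0.000209. The gene lies at chr7:142086423-142094486 (GRCm39, plus strand). Its value has a limit that no other member shared to this extent, because 76.6% of the 43-base words of its transcript, the length of 1 read, occur elsewhere in the genome.

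The copy is listed among the 79. *Mrpl23-ps1* is a processed pseudogene at chr2:74421674-74422253 (GRCm39, minus strand), and its aligned stretch of 540 bases was 100% identical to the *Mrpl23* transcript, so that most reads of the 2 genes cannot be told apart. A stretch of 30 bases from the middle of the alignment, at chr2:74421953-74421982 in the pseudogene, is shown because it is the same in both genes:
Mrpl23: gaggatcaagaaaccagactacaaagtggc
Mrpl23-ps1: gaggatcaagaaaccagactacaaagtggc
*Mrpl23-ps1* gave 93.1, 88.2 and 119 normalized counts with empty vector, 124, 224 and 109 in SAM1 and 140, 162 and 152 in SAM2. It was called higher, by a log2 difference of 0.57 ± 0.21 (adjusted p = 0.0432), the opposite of *Mrpl23*. The 2 rows together summed to 325, 322 and 341 with empty vector, to 230, 364 and 205 in SAM1 and to 263, 291 and 249 in SAM2. Fitted as 1 row, an alternative chosen after seeing the data, the sum differed by −0.33 ± 0.16 and did not pass (adjusted p = 0.11). The pseudogene took between 27.4 and 34.9% of the sum with empty vector and between 53.3 and 61.5% in the others, so the pair differed in how its reads were split, and the largest fall of a single row was not called for the sum.

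The fall of the next 4 genes carried no such limit, since at most 1.54% of their words occurred elsewhere. *Mrpl33*, the homolog of bacterial L33 (chr5:31754279-31837542), fell from 3189, 3972 and 3536 normalized counts to 1993, 2221 and 1843 in SAM1 and 2223, 2223 and 2317 in SAM2, a log2 difference of −0.74 ± 0.0878 (adjusted p = 8.81e-05). *Mrps9* encodes uS9m in the head of the small subunit (chr1:42890348-42945274). Its 2209, 2259 and 2209 with empty vector stood against 1335, 1358 and 1289 in SAM1 and 1490, 1540 and 1524 in SAM2, a log2 difference of −0.65 ± 0.0651 (adjusted p = 2.87e-05). For both genes every library of either line lay below all controls. The spread within a group was small beside the gap for *Mrps9*. For *Mrpl33* the controls themselves ranged from 3189 to 3972, with the highest library of the lines at 2317. Of the exonic bases of *Mrpl33*, 571 lie opposite to *Rbks*.

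*Mrpl36*, a small protein of the large subunit (chr13:73476605-73480647), gave 1812, 2276 and 2099 with empty vector, 1397, 1480 and 1334 in SAM1 and 1274, 1272 and 1183 in SAM2 (log2 difference −0.64 ± 0.0862, adjusted p = 0.000198). *Mrpl15*, which encodes uL15m (chr1:4843429-4855972), gave 2774, 3076 and 2908, then 1758, 1820 and 1674, then 2055, 2135 and 2007 (−0.62 ± 0.0815, adjusted p = 0.000171). For both, the highest library of the 2 lines remained below the lowest control.

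Rises were fewer. *Mrps28*, which encodes bS1m of the small-subunit body (chr3:8865093-8988978), rose most, from 542, 568 and 516 normalized counts with empty vector to 939, 1031 and 922 in SAM1 and 781, 830 and 832 in SAM2. The log2 difference was 0.71 ± 0.088 (adjusted p = 0.000116), with all 6 libraries above the controls, and 10.9% of its words occur elsewhere in the genome. *Mrps6*, the homolog of bacterial S6 (chr16:91854965-91909592), rose from 2644, 3033 and 2745 to 4148, 4645 and 3981 in SAM1 and 3755, 3752 and 3498 in SAM2 (0.49 ± 0.0853, adjusted p = 0.000924). Of its 3196 exonic bases, 404 are shared on the same strand with *Slc5a3*, a transporter gene, so its count is uncertain to that extent.

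*Mrpl57* (chr14:58063648-58066757) and *Mrpl52* (chr14:54664360-54668593), both of proteins found only in mitochondrial ribosomes, rose as well. *Mrpl57* gave 880, 1038 and 972 with empty vector, 1370, 1466 and 1214 in SAM1 and 1324, 1351 and 1307 in SAM2 (0.48 ± 0.0693, adjusted p = 0.00032). *Mrpl52* gave 1315, 1521 and 1504, then 1954, 2320 and 1922, then 1891, 1969 and 1950 (0.47 ± 0.0743, adjusted p = 0.000551). Both lie on chromosome 14, where the median of all 513 listed genes was itself 0.55 higher, so neither rose more than its chromosome. *Mrpl18*, which encodes uL18m of the central protuberance (chr17:13130034-13135718), rose from 1902, 2275 and 2026 to 2910, 3411 and 3036 in SAM1 and to 2373, 2523 and 2493 in SAM2 (0.42 ± 0.116, adjusted p = 0.0119), with 12.1% of its words found elsewhere. The *Mrpl18* call was lost under chromosome centring (0.26, adjusted p = 0.158) and without empty vector replicate 1 (0.37, adjusted p = 0.0582). Of the exonic bases, 442 of 2117 in *Mrpl18* lie opposite to *Tcp1* and 224 of 3003 in *Mrpl57* opposite to *Ska3*.

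**Figure D3:**
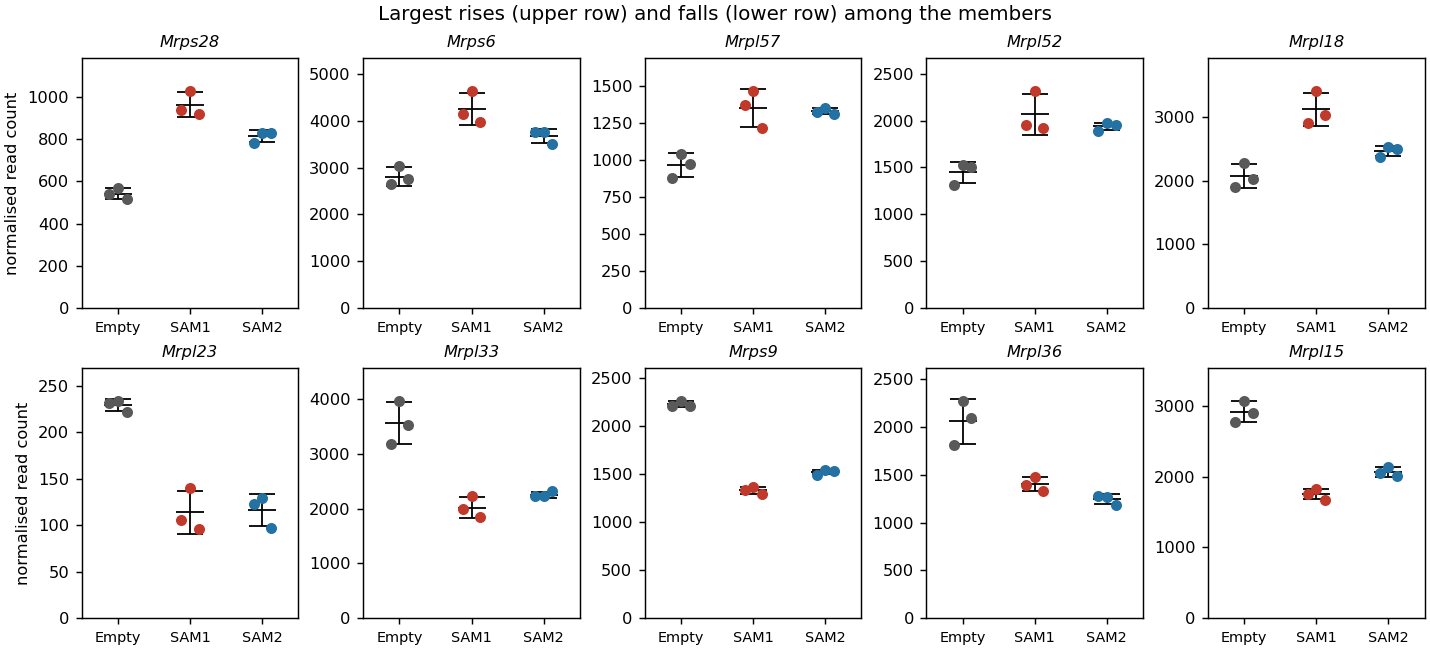
Normalized read counts of the 5 members with the largest rises (upper row) and the 5 with the largest falls (lower row) whose 6 SAM libraries all lie on 1 side of the controls. Points are libraries, bars the mean ± SD of 3, and each axis starts at 0. *Mrpl23* drops from 222 or more to 140 or less, and shares nearly all of a pseudogene's sequence.

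Sorted by place in the ribosome, no site moved as a whole. Over all genes, 26.8% were called higher and 27.0% lower. In the peptidyl transferase centre and core, *Mrpl3* (−0.35), *Mrpl16* (−0.31) and *Mrpl27* (−0.39) fell, while *Mrpl2* differed by 0.07 and did not pass. In the stalk, *Mrpl10* (−0.35), *Mrpl11* (−0.21) and *Mrpl12* (−0.23), which anchor and form the factor-binding arm, fell, and *Mrpl53* (−0.015) and *Mrpl54* (0.081) did not pass. Under the scaling to equal sums, which called 35.2% of all genes higher and 18.7% lower, 1 stalk gene was lower and 1 higher. Of the 7 exit tunnel genes, *Mrpl17* (−0.37), *Mrpl45* (−0.26), which ties the ribosome to the inner membrane, and *Mrpl23* fell, *Mrpl22* rose (0.34), and *Mrpl4* (−0.14), *Mrpl24* (−0.065) and *Mrpl47* (0.20) did not pass.

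The central protuberance split, with *Mrpl18* and *Mrpl52* higher and *Mrpl38* (−0.34), *Mrpl46* (−0.26), *Mrpl48* (−0.38) and *Mrpl58* (−0.42), a peptidyl-tRNA hydrolase built into the ribosome, lower. *Mrpl40* differed by −0.0076. In the head of the small subunit, 3 of 8 genes fell, *Mrps9*, *Mrps14* (−0.47) and *Mrps24* (−0.34), and none rose in the comparison of all 6 libraries. The body and platform held changes both ways, with 6 of 17 genes higher and 7 lower. Besides *Mrps28* and *Mrps6*, those higher were *Mrps5* (0.20), *Mrps16* (0.24), *Mrps25* (0.23) and *Mrps34* (0.20). *Mrps34* shares 1110 of its 2322 exonic bases with *Nme3* on the same strand, so its count is uncertain to that extent. The lower ones included *Mrps23* (−0.57), *Mrps17* (−0.41), *Mrps11* (−0.39) and *Mrps12* (−0.38), the last a protein of the decoding centre.

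The *Mrps18* paralogs differ in place, and each ribosome holds *Mrps18b* and *Mrps18c* in the small subunit and *Mrps18a* in the large. *Mrps18a* fell from 3729 ± 174 normalized counts (mean ± SD, n = 3) to 3176 ± 214 in SAM1 and 3297 ± 14.4 in SAM2 (log2 difference −0.20, adjusted p = 0.00693), a call lost under the scaling to equal sums (−0.082, adjusted p = 0.196). *Mrps18b* (0.023) and *Mrps18c* (−0.092) did not pass, and *Mrps18c* stood at 0.03 under equal sums and was called lower under quantile normalization (−0.15, adjusted p = 0.0448). *Mrps30* was lower by 0.19, with 2644, 3014 and 2848 with empty vector against 2591, 2671, 2601, 2396, 2326 and 2340, a called fall (adjusted p = 0.0269) although 1 SAM1 library overlapped the controls. That call was lost under quantile normalization (adjusted p = 0.105), equal sums (0.458) and chromosome centring (0.157), and without empty vector replicate 2 (0.124) or 3 (0.0822). *Mrps36*, which is no ribosomal protein, differed by −0.13 and did not pass (adjusted p = 0.267).

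Of 12 members in which variants are a known cause of human mitochondrial disease, 4 were higher (*Mrps2*, *Mrps16*, *Mrps28* and *Mrps34*), 6 lower (*Mrps14*, *Mrps22*, *Mrps23*, *Mrpl3*, *Mrpl12* and *Mrpl44*) and 2 did not pass (*Mrps7* and *Mrpl24*). Their values ran from −0.57 to 0.71, where 26.8% of all genes were called higher and 27.0% lower.

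Levels were compared between genes per kilobase of the canonical transcript. With empty vector, the median was 853 normalized counts per kilobase over 78 genes, the pseudogene left out, with the quartiles at 394 and 1510. The highest large-subunit gene was *Mrpl33*, at 4870 ± 536, followed by *Mrps18a* (4200 ± 196), a gap near the spread between libraries. The highest small-subunit gene was *Mrps21*, at 2910 ± 213. *Mrps28* was the lowest of the small subunit, at 187 ± 8.96, and *Mrpl53* the lowest of all, at 18.1. The gene that rose most was thus among the lowest per kilobase, and *Mrpl33* was both the highest and among those that fell most. These ranks rest on the length taken, since with the bases of all annotated exons *Mrpl33* ranked 59 of 78. By that length *Mrps23* (1910 per kilobase) was the highest small-subunit gene and *Mrps35* (73.5) the lowest, with *Mrps28* at 170. By the canonical transcript, *Mrps6* (4100 ± 333 per kilobase) stood above *Mrpl33* (2760 ± 260) in SAM1.

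The 2 lines were also set against each other, a difference that takes from the controls only their part in the estimate of the spread. Of the 79 genes, 16 were higher in SAM2, 18 higher in SAM1 and 45 did not pass, while 31.1% of all genes were higher in SAM2 and 29.2% higher in SAM1. *Mrpl1*, which encodes uL1m of the movable arm at the tRNA exit site, was the gene with the largest rise from SAM1 to SAM2. It gave 966, 1019 and 918 normalized counts in SAM1 and 1246, 1276 and 1268 in SAM2, against 1388, 1360 and 1356 in the controls (SAM2 minus SAM1 0.39 ± 0.0429, adjusted p = 5.36e-06). *Mrpl16* followed with 1260, 1414 and 1253 against 1569, 1582 and 1558 (0.26, adjusted p = 0.000343), and *Mrpl13* with 4295, 5143 and 4331 against 5369, 5568 and 5267 (0.24, adjusted p = 0.00675). In all 3 genes the groups did not overlap, and for *Mrpl1* and *Mrpl16* SAM2 lay between SAM1 and the controls.

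In the other direction, *Mrpl18* was 0.34 lower in SAM2 (adjusted p = 0.000647). *Mrpl41*, of a protein specific to mitochondrial ribosomes, gave 637, 773 and 669 in SAM1 and 568, 554 and 541 in SAM2, close to the 502, 567 and 570 of the controls (SAM2 minus SAM1 −0.32, adjusted p = 0.00216). *Mrps2*, which encodes uS2m, gave 2192, 2305 and 2290 in SAM1, 1845, 1885 and 1923 in SAM2 and 1741, 1668 and 1723 in the controls (−0.26, adjusted p = 3.08e-05). For these 3 genes SAM1 lay farther from the controls than SAM2.

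The log2 difference of a member went with that of its neighbours on the chromosome. For each of the 79 genes, the median log2 difference was taken over the 20 nearest listed genes on either side, other members left out. Across genes, which are not independent replicates and share libraries, the log2 difference of a member and that of its neighbours correlated with Pearson's r = 0.758 and Spearman's rho = 0.799 in the comparison of all 6 libraries. The values were 0.732 and 0.752 in SAM1, 0.733 and 0.77 in SAM2, and 0.368 and 0.376 between the lines. On chromosome 1 all 5 members were called lower (median of all listed genes there −0.19) and on chromosome 7 all 6 (−0.24). On chromosome 14 all 3 were called higher, and on chromosome 2, with an all-gene median of 0.21, 3 of 5 were higher and none lower.

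Chromosome 11 had an all-gene median of 0.047, yet 8 of its 11 members were lower and 1 higher. The neighbour medians of those 8 lay between −0.29 (*Mrps24*) and −0.069 (*Mrpl10*), and that of *Mrpl22*, which rose, was 0.20. Some members departed from their neighbours. *Mrps28* and *Mrps6* rose by 0.71 and 0.49 beside neighbours at −0.045 and −0.032, while *Mrpl15* fell by 0.62 beside neighbours at −0.69. *Mrpl33* (−0.74 beside −0.23) and *Mrpl36* (−0.64 beside −0.24) fell further than theirs. With each gene centred on the median of its chromosome in each library, 6 members were called higher and 30 lower, beside 21.5 and 30.1% of all genes. *Mrpl52* and *Mrpl57* then turned to −0.20 and −0.19 and did not pass, and in SAM2 alone both were called lower, at −0.28 (adjusted p = 0.00296) and −0.24 (adjusted p = 0.00667). The part of chromosome copy number in these values was not tested.

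**Figure D4:**
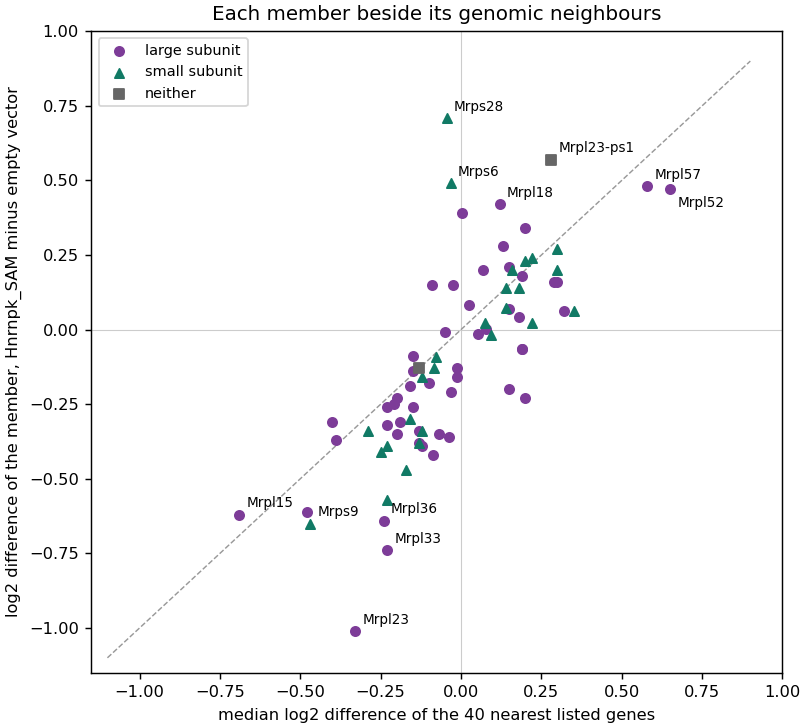
Log2 difference of each member between the libraries labelled Hnrnpk_SAM and empty vector (y axis) against the median log2 difference of its 40 nearest listed genes (x axis). The dashed line marks equal values. *Mrps28* and *Mrps6* lie above the line with neighbours near 0, and *Mrpl52* and *Mrpl57* lie below it at the right edge.

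Many members share a promoter region with another gene. A start site on the opposite strand, from 200 bases inside to 1000 bases upstream, was annotated for 20 of 78 members (25.6%), beside 9.12% of 13007 protein-coding listed genes. The closest pair within the group was *Mrpl46* and *Mrps11*, whose starts lie 30 bases apart on chromosome 7, and both fell, by 0.26 and 0.39. The 29 bases between the starts, chr7:78432838-78432866 (GRCm39, plus strand), are shown because both genes are read outward from them, and none of the motifs searched is in them:
Mrpl46 and Mrps11: ccatgaggcaacgcgggccggcgaggggc

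In 7 of the 20 pairings both genes were called, and in these the direction was the same, with *Mrpl46* and *Mrps11* counted from both sides. The signs were opposite for *Mrpl43* and *Twnk*, *Mrpl49* and *Fau*, *Mrps18c* and *Helq*, and *Mrps7* and *Gga3*, none with both genes called. The matching share among other head-to-head pairs was not computed. *Mrpl30* fell by 0.61 beside *Mitd1*, which acts in cytokinesis, at −0.92, and *Mrpl57* rose by 0.48 beside the kinetochore gene *Ska3* at 1.63. *Mrpl51*, at 0.16, did not pass, although its partner *Ncapd2*, a condensin subunit, rose by 1.51. Partners also lie near each other on the chromosome, so a shared promoter and a shared position cannot be told apart here.

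Promoter sequences of RefSeq (GRCm38.p6, 250 bases before to 50 after the start) were matched for 69 members and searched on both strands for 4 motifs, no one of which contains another. The ETS motif CCGGAAG, bound by GABP among others, was in 25 (36.2%) of the member promoters and in 17.5% of 11165 promoters of listed genes. The NRF1 motif was in 13 (18.8%, all promoters 9.97%), YY1, with AAGATGGC, in 12 (17.4%, all 4.6%), and the E-box CACGTG in 5 (7.25%, all 10%). GABP, NRF1 and YY1 are known regulators of nuclear genes for mitochondria. For each motif the matches were counted by outcome. ETS matches were in 5 of 13 promoters of genes called higher, 12 of 33 lower and 8 of 23 that did not pass. For NRF1 these were 3, 6 and 4, for YY1 2, 6 and 4, and for the E-box 0, 2 and 3. A match is a description of letters and no binding was measured.

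Windows of 30 bases around a match are shown, 1 for each motif found more often than in all promoters, from the genes with large changes described above. The coordinates are GRCm39, the strand is plus, and capitals mark the match, which lies on the minus strand for *Mrpl52* and *Mrpl36*:
Mrpl57 (NRF1, chr14:58063629-58063658): tttgaatcctGCGCAGGCGCagaaggcgtc
Mrpl52 (ETS, chr14:54664308-54664337): caagatgtcggCTTCCGGttttcccggcag
Mrpl36 (YY1, chr13:73479087-73479116): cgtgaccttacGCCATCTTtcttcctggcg
The windows of *Mrpl57* and *Mrpl52*, which rose, end upstream of the start of the canonical transcript, although that of *Mrpl57* spans the first annotated base of the gene, and the window of *Mrpl36*, which fell, spans the canonical start.

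The other genes of mitochondrial translation gave mixed results. Of 5 mitoribosome proteins without an Mrp name, *Dap3* (0.18), *Chchd1* (0.19) and *Gadd45gip1* (0.17) were higher, *Aurkaip1* (−0.25) was lower and *Ptcd3* (0.085) did not pass. Of 29 genes for assembly of the mitoribosome and modification of its rRNA, 5 were higher and 14 lower, with a median of −0.17 (all genes 26.8% higher and 27.0% lower). Under equal sums 8 were higher and 8 lower, beside 35.2 and 18.7% of all genes. The largest falls were *Mtg1* (−0.79), a GTPase of large-subunit assembly, and *Tfb1m* (−0.54), which methylates the small-subunit rRNA, and the largest rises *Mettl17* (0.49) and *Noa1* (0.37), both of small-subunit assembly. *Mettl17* lies on chromosome 14.

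Of 17 translation factors, 4 were higher and 8 lower. The shares of all genes, for this list and the next, were 26.8% higher and 27.0% lower. *Oxa1l*, the inner membrane insertase that binds the ribosome's exit site, rose most (1.06, from 928 ± 8.90 to 1819 ± 32.2 in SAM1 and 2064 ± 7.67 in SAM2, mean ± SD, n = 3), and *Mtrf1*, a release factor, by 0.72, both on chromosome 14. *Mtif2*, the initiation factor, and *Tufm*, the elongation factor that delivers tRNAs, fell by 0.56 and 0.49. Of 17 mitochondrial aminoacyl-tRNA synthetases, 2 were higher, *Cars2* (0.49) and *Aars2* (0.17), and 8 lower, with *Ears2* (−0.63) and *Nars2* (−0.53) the lowest.

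Among 13 genes of mitochondrial transcription and its regulators, 2 were higher and 4 lower (15.4 and 30.8%, all genes 26.8 and 27.0%). *Ppargc1a*, the coactivator of mitochondrial biogenesis, was at 6.73 ± 2.30 normalized counts with empty vector, 339 ± 8.37 in SAM1 and 71.6 ± 3.88 in SAM2 (log2 difference 4.39). Listing required more than 10 normalized counts in a set share of samples. *Ppargc1a* was therefore listed only through the libraries in which it is high, and its call adds no support. *Ppargc1b* rose by 0.99. *Gabpa* and *Gabpb1*, the subunits of GABP, fell by 0.35 and 0.30, and *Nrf1* (0.093) and *Tfam* (−0.16) did not pass. *Ppargc1a* was thus higher in every Hnrnpk_SAM library while the share of counts taken by the Mrpl and Mrps genes overlapped between the groups.

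The RNAs of mitochondrial DNA were mostly higher. Both rRNAs of the mitoribosome rose, *mt-Rnr2* of the large subunit from 55478, 57203 and 60855 normalized counts to 158294, 162083 and 162089 in SAM1 and 100672, 98937 and 99557 in SAM2 (1.13, adjusted p = 0.00106), and *mt-Rnr1* of the small subunit by 0.88. These values come from libraries of polyA+ RNA. Of 13 mRNAs, 8 were listed, and 6 rose, led by *mt-Nd5* (0.95) and *mt-Nd2* (0.89), while *mt-Atp8* (0.27) and *mt-Nd6* (−0.18) did not pass. In *mt-Nd6* the lines had opposite calls, 0.25 in SAM1 (adjusted p = 0.0101) and −0.61 in SAM2 (adjusted p = 9.42e-06). The 5 others, among them *mt-Co2* and *mt-Atp6*, were not analysed here. SAM1 lay above SAM2 for all 8, and all 8 of these differences passed. As a share of the library they took 0.809, 0.688 and 0.814% with empty vector, 1.74, 1.54 and 1.71% in SAM1 and 1.08, 1.07 and 0.997% in SAM2.

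Within groups, the members moved together between libraries. Replicate 2 of the empty vector held the highest value of its group for 59 of 79 members (74.7%, all genes 38.9%), and replicate 2 of SAM1 for 71 (89.9%, all genes 37.2%). In the SAM2 group replicate 2 was highest for 36. The median coefficient of variation of a member within a group was 4.99% for the empty vector, 5.86% for SAM1 and 2.43% for SAM2. Without empty vector replicate 1, 9 members were called higher and 34 lower (all genes 23.0 and 23.0%). Without empty vector replicate 2 there were 14 and 27 (22.7 and 22.5%). With all libraries, 26.8% of all genes were called higher and 27.0% lower. Leaving out SAM1 replicate 2 raised the members called higher in SAM2 than in SAM1 from 16 to 25, while the share of all genes went from 31.1 to 29.9%.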

How the data were processed

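PolyA+ RNA of 9 MEF libraries was sequenced as paired reads of 43 bases. Per the labels and the study's methods, the authors checked reads with FastQC 0.11.0, aligned them to GRCm39 with TopHat2, which ran Bowtie2 and SAMtools, obtained gene counts from HTSeq and normalized them by the size factors of DESeq2. These values, deposited by the authors, are a signal, not raw counts, and the table lists genes with normalized counts above 10 in a set share of samples. Whether counting used the strand of the directional libraries is not given in the sources used here, so overlapping opposite genes may share reads. Every value was a whole multiple of the smallest value of its library (tolerance 0.01), so whole reads were recovered (100% of values, size factors 0.856 to 1.08) for edgeR and DESeq2 as alternatives.

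Groups were taken from the sample titles. The main test was limma 3.58.1 (R 4.3.3, eBayes with trend, two-sided) on log2(value + 1), with Benjamini-Hochberg adjustment over 15184 genes and a threshold of 0.05. The 6 Hnrnpk_SAM libraries were compared with 3 empty vector libraries, as in the study, and a fit with 3 groups gave the comparisons by line. Fold changes are on the log2(value + 1) scale. Alternatives were pseudocounts of 0.5 and 10, a filter at 10, quantile normalization, scaling to equal sums, a replicate block, edgeR 4.0.16, DESeq2 1.42.0, no trend, chromosome centring and leaving out each library. The fits were tested on simulated data. Recovered reads were scarce only for *Mrpl53*, with 6 in its lowest library.

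Positions and transcripts came from GRCm39 with GENCODE vM39, which gave 14791 of the 15184 symbols exactly 1 gene. Words of 43 bases of each canonical transcript were searched in the genome with both strands. The members and gene lists were chosen with earlier results of these data known, and support nothing by themselves. The text names the 5 largest rises and falls past the threshold whose groups do not overlap, the 3 largest of each line comparison, the highest and lowest per kilobase, the *Mrps18* genes, *Mrps30*, *Mrps36*, members of the role and disease lists, the 5 proteins outside the name rule and the 2 largest rises and falls of each pathway list. Pseudogenes were not ranked. Head-to-head partners, *Mrpl30*, *Tfam*, *Nrf1* and the markers named were chosen after their values were seen.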

Additional observations from a re-analysis of the deposited data

Results flagged for a closer look

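*Mrpl52* in SAM1 replicate 2 stood apart from the other Hnrnpk_SAM libraries, with 2320 normalized counts beside 1891 to 1969, a gap of 0.817 of the whole range, above Dixon's critical value for 6 samples. Chance flags about 1 in 20 groups, and that library held the highest value of its group for 71 of 79 members.

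The effect of the line differed for 6 members by the test of SAM2 minus SAM1 itself (limma, adjusted over all genes). The log2 differences were 0.39 for *Mrpl1*, 0.26 for *Mrpl16* and 0.24 for *Mrpl13*, and −0.34 for *Mrpl18*, −0.32 for *Mrpl41* and −0.26 for *Mrps2*. In each of these genes the 3 libraries of SAM2 and of SAM1 did not overlap. They are the 3 largest of 16 rises and of 18 falls, where 31.1% of all genes were called higher and 29.2% lower between the lines.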

How the results depend on the processing

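Pseudocount, filter, quantile normalization, edgeR, DESeq2 and eBayes without trend kept every count of members against empty vector within 1.5 times of its value. Between the lines quantile normalization gave 29 lower, beside 28.8% of all genes. Scaling to equal sums gave medians of −0.0048 (all 6 libraries), 0.047 (SAM1) and −0.03 (SAM2), as all genes shifted with it. It gave 26 higher and 23 lower in the first (all genes 35.2 and 18.7%) and 25 lower in SAM1 (27.0%). Chromosome centring left 6, 11, 6 and 9 members higher (all 6 libraries, SAM1, SAM2, SAM2 against SAM1), turned the median between the lines to −0.083, and turned *Mrpl52* (−0.20 over all 6 libraries, −0.28 in SAM2), *Mrpl57* (−0.19, −0.24) and *Mrps18b* (−0.14). Fitting the mean of both lines gave 23 higher and 40 lower, while 37.5% of all genes were called higher and 37.0% lower. Exons of all isoforms gave a median level of 343 per kilobase. The 60 members with at most 10% of their words elsewhere were a shorter list, chosen after seeing the data. They gave 9 higher and 31 lower over all 6 libraries (median −0.17, all genes 26.8 and 27.0%). In SAM1 there were 13 and 34 (median −0.16, all genes 37.3 and 36.9%). In SAM2 there were 12 and 34 (median −0.16, all genes 35.2 and 35.3%).

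Leaving out 1 library moved the counts between 9 and 17 higher and 27 and 37 lower over all 6 libraries, 17 and 25 and 34 and 42 in SAM1, 14 and 22 and 34 and 42 in SAM2, and 13 and 25 and 15 and 24 between the lines. The medians ran from −0.13 to −0.074, from −0.15 to −0.066, from −0.15 to −0.10 and from −0.057 to 0.042, and the last sign turned without SAM1 replicate 3. Values near 0 turned for *Mrpl53* (0.058 with DESeq2, 0.056 with edgeR, 0.10 with equal sums, 0.0089 with a pseudocount of 10, 0.00096 to 0.18 without 1 library, among them 0.042), *Mrps18c* (0.03 with equal sums) and *Mrps21* (0.10 with equal sums, −0.07 to 0.035 without 1 library, among them 0.006, 0.00023 and 0.0092), and none of them passed. The cause was not tested.

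Deviations of same-numbered libraries correlated with a mean r of 0.0531 over 9 pairs (0.00237 to 0.117). Over 18 pairs with different numbers the mean r was −0.0265 (−0.122 to 0.046). Whether the numbers pair the libraries was not tested. A replicate block gave 13 higher and 33 lower over all 6 libraries (all genes 24.1 and 24.3%). It gave 25 and 39 in SAM1 (38.5 and 38.1%) and 23 and 41 in SAM2 (36.6 and 36.5%). Between the lines there were 21 and 24 (33.3 and 31.3%). Under the block the *Mrps30* call over all 6 libraries was lost (−0.19, adjusted p = 0.053).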
